A study of Homo sapiens with 12 samples.

Results

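The mRNAs of 10 secreted inflammatory mediators were followed through the series: the IL-6 family cytokines IL6 and LIF, the IL-1 cytokines IL1A and IL1B, the CXC chemokines IL8 (now CXCL8), CXCL1, CXCL2 and CXCL5, and the CC chemokines CCL2 and CCL20. They were taken by symbol from a table of 18815 rows, and all 10 were found in it and were among the 16146 genes tested, which reached a signal of 1 in 2 or more libraries. The cells were the established human lines RBE, SSP-25 and HuH-28 of ICC, intrahepatic cholangiocarcinoma, a cancer of the bile ducts within the liver. Each line was transfected with a scrambled control siRNA or with siRNA against LKB1 and harvested at 48 h, which gave 6 groups of 2 libraries. HuH-28 was grown in MEM and the other lines in RPMI1640, so line and medium cannot be told apart. The study describes LKB1 as present and functional in these lines, and the knockdown was transient and partial. Nothing in the labels says whether the paired libraries came from separate cultures, so p-values measure the spread between libraries, which may be technical.

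These mediators form a network. IL-1α and IL-1β bind IL1R1 with IL1RAP and, through MYD88, activate NF-κB, a family of transcription factors that switches on chemokine and IL6 genes. The CXC chemokines IL8, CXCL1, CXCL2 and CXCL5 bind CXCR2 and attract neutrophils, CCL2 binds CCR2 and attracts monocytes, and CCL20 binds CCR6 and attracts lymphocytes and dendritic cells. IL-6 and LIF signal through the shared receptor chain gp130, the product of IL6ST, and STAT3, and IL-6 is known as a growth factor of biliary epithelium. Many of these mRNAs are short-lived and carry AU-rich elements in their 3′ UTR.

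Values are the authors' normalized reads per kilobase, here called signal. By that unit transcript length is divided out, and genes are compared on it here. How the values were normalized is not known. The table holds no read counts, so the depth is unknown and no counting interval is given. The signal of a library summed to between 9918899 and 11748262. The number of rows at exactly 0 was 1063 in 7 libraries and between 2985 and 3410 in the other 5, and values under 1 are not read as levels here. Differences are on the scale log2(signal + 0.5), as LKB1 minus control siRNA with the standard error of the fit, which understates changes of low genes. A gene passed at an adjusted p under 0.05 by limma over all 16146 genes. The targeted gene STK11, which encodes LKB1, was lower with LKB1 siRNA in each line without overlap of libraries. Its mean signal was 462 with control and 67.3 with LKB1 siRNA in SSP-25, 649 and 215 in HuH-28, and 457 and 143 in RBE. The keratins KRT7, KRT8 and KRT18 of simple epithelia were at 1701 or more in every library. KRT19 ranged from 9.86 to 11826 and EPCAM from 0.0257 to 447, so not every biliary marker was present in every line. Of 10 leukocyte markers, CD3E, FCGR3A and TYROBP were at 0 in all 12 libraries and PTPRC, the pan-leukocyte marker, at 6.59 or less. CD68 was at 723 to 1967 in every library, LYZ reached 155, ITGAM 69.6 and CD14 28.8, and the list summed to between 961 and 1983 with control siRNA and between 901 and 1672 with LKB1 siRNA. The 5 fibroblast markers summed to between 53.6 and 18477 with control siRNA and between 75.3 and 22271 with LKB1 siRNA. COL1A1 alone reached 18628. The 5 endothelial markers summed to between 11.9 and 313 and between 14.1 and 413. The part of such transcripts in the results was not tested.

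With control siRNA the lines had different profiles of these mRNAs. HuH-28 expressed all 10, and its summed signal was 7570 ± 641 (SD, n = 2). In SSP-25 the sum was 2050 ± 228 and in RBE 878 ± 49.5 (SD, n = 2 each). IL6 alone made up 58.9% of the sum in HuH-28, whereas LIF made up 78.0% in RBE and 24.0% in SSP-25. The RBE profile was thus mostly LIF, while SSP-25 had a flatter one.

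**Figure D1:**
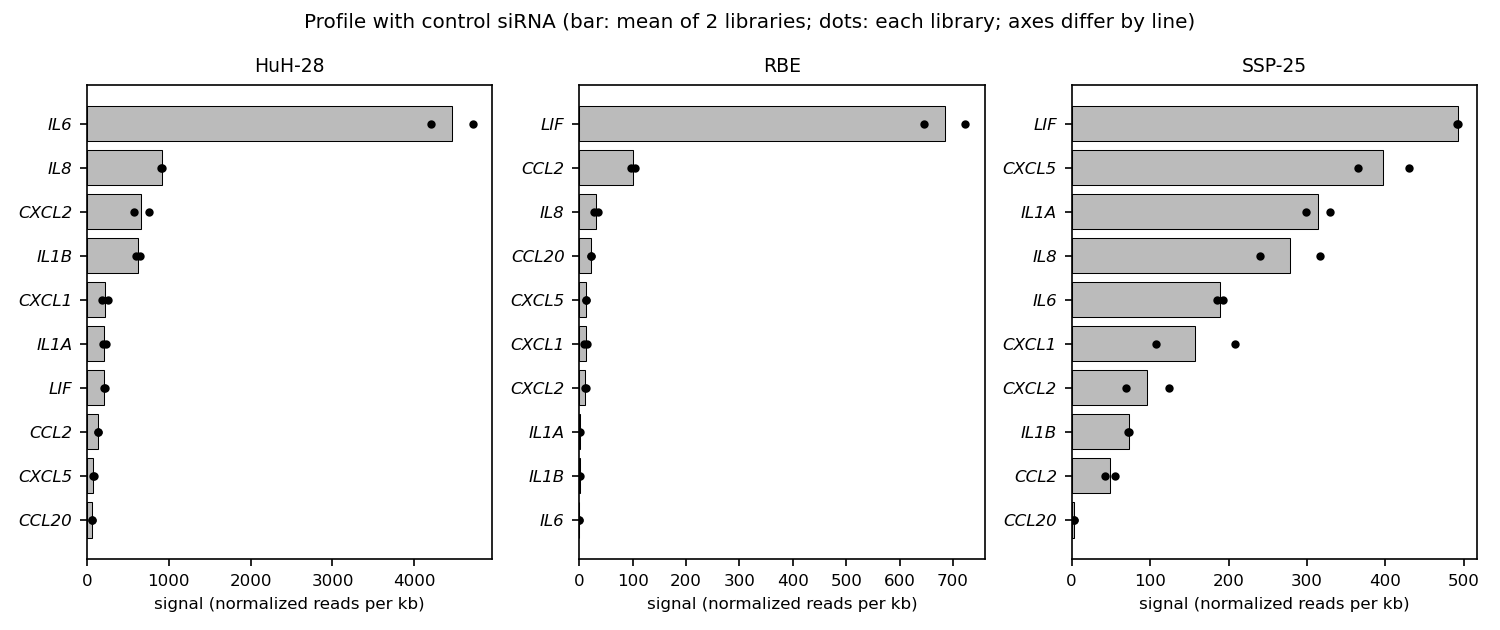
Mean signal (normalized reads per kilobase, horizontal axis) of the 10 mRNAs in each line with control siRNA, sorted by level, with a dot for each of the 2 libraries. IL6 leads in HuH-28 at 4458, and LIF leads in RBE at 684 and in SSP-25 at 492, and the axes differ between lines.

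In HuH-28 the order of control levels was IL6 at 4458, IL8 at 912, CXCL2 at 664, IL1B at 621, CXCL1 at 224, IL1A at 214, LIF at 209, CCL2 at 134, CXCL5 at 77.3 and CCL20 at 57.7. The libraries of CXCL2 and IL1B overlapped, as did those of CXCL1, IL1A and LIF, so the order within those sets is not resolved. IL6 stood above 98.0% of all rows of the table there. In RBE the order was LIF at 684, CCL2 at 100.97, IL8 at 31.9, CCL20 at 22.5, CXCL5 at 12.7, CXCL1 at 11.96 and CXCL2 at 11.5, with IL1A, IL1B and IL6 at 1.00 or less. The libraries of CXCL5, CXCL1 and CXCL2 overlapped. In SSP-25 the order was LIF at 492, CXCL5 at 397, IL1A at 314, IL8 at 278, IL6 at 190, CXCL1 at 157, CXCL2 at 96.7, IL1B at 72.8, CCL2 at 49.0 and CCL20 at 3.06. There IL1A overlapped IL8, CXCL1 overlapped both IL6 and CXCL2, and IL1B lay within the range of CXCL2.

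Between control groups, all 10 mRNAs differed between RBE and HuH-28, 9 of them lower in RBE, where 77.3% of all genes tested passed. LIF was the exception, at 1.70 ± 0.06 higher in RBE (adjusted p = 3.3e-09). Between SSP-25 and HuH-28, 8 of 10 passed against 74.8% of all genes, with CXCL5 and LIF higher and 6 lower in SSP-25. IL1A and CXCL1 did not pass in that comparison (log2 differences of 0.56 ± 0.52 and -0.57 ± 0.30, adjusted p = 0.35 and 0.11). The IL1A controls, 195 and 232 in HuH-28 and 298 and 329 in SSP-25, did not overlap. The common spread of the fit for IL1A includes RBE libraries between 0.366 and 3.55. Between SSP-25 and RBE all 10 passed against 73.1% of all genes, with 7 higher in SSP-25 and LIF, CCL2 and CCL20 lower. Because most genes differed between lines, the count of members that did so is not particular to them. The direction was uneven. The median of the 10 differences was -4.50 for RBE against HuH-28, -1.59 for SSP-25 against HuH-28 and 3.36 for SSP-25 against RBE. The medians over all genes were -0.007, -0.004 and 0.003 in that order. The medians of the contrasts with RBE include IL6, IL1A and IL1B, whose control means in RBE were 1.00 or less.

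After LKB1 siRNA the response depended on the line. In RBE 6 of the 10 mRNAs rose and 0 fell, and the median change was 1.18 on the log2 scale. The 6 include IL1B, whose control mean in RBE was 0.961 and which did not pass with that line fitted alone (adjusted p = 0.092). The median includes IL6 and IL1A, from which no change is read in RBE. In HuH-28 2 rose and 3 fell, and in SSP-25 1 rose and 4 fell, with medians of -0.09 and -0.19. Over all genes tested, 22.1% rose and 18.6% fell in RBE, 14.3% rose and 15.5% fell in HuH-28, and 21.1% rose and 21.1% fell in SSP-25, with medians between 0.01 and 0.02. On average over the lines 5 of 10 rose (LIF, IL1B, IL8, CCL2 and CCL20) and 2 fell (IL6 and CXCL5), beside 27.3% and 25.2% of all genes. The IL6 average includes RBE, where its signal was 0.0170 or less and is not read as a level. A test of the difference between lines passed for 6 of the 10 (LIF, IL8, CXCL1, CXCL2, CXCL5 and CCL20), beside 28.2% of all genes. The summed signal of the 10 mRNAs went from 878 ± 49.5 to 1544 ± 133 (SD, n = 2 each) in RBE. With LKB1 siRNA it was 6988 ± 585 in HuH-28 and 1720 ± 109 in SSP-25 (SD, n = 2 each). For this sum control and LKB1 siRNA libraries were separate in RBE and SSP-25 and overlapped in HuH-28.

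**Figure D2:**
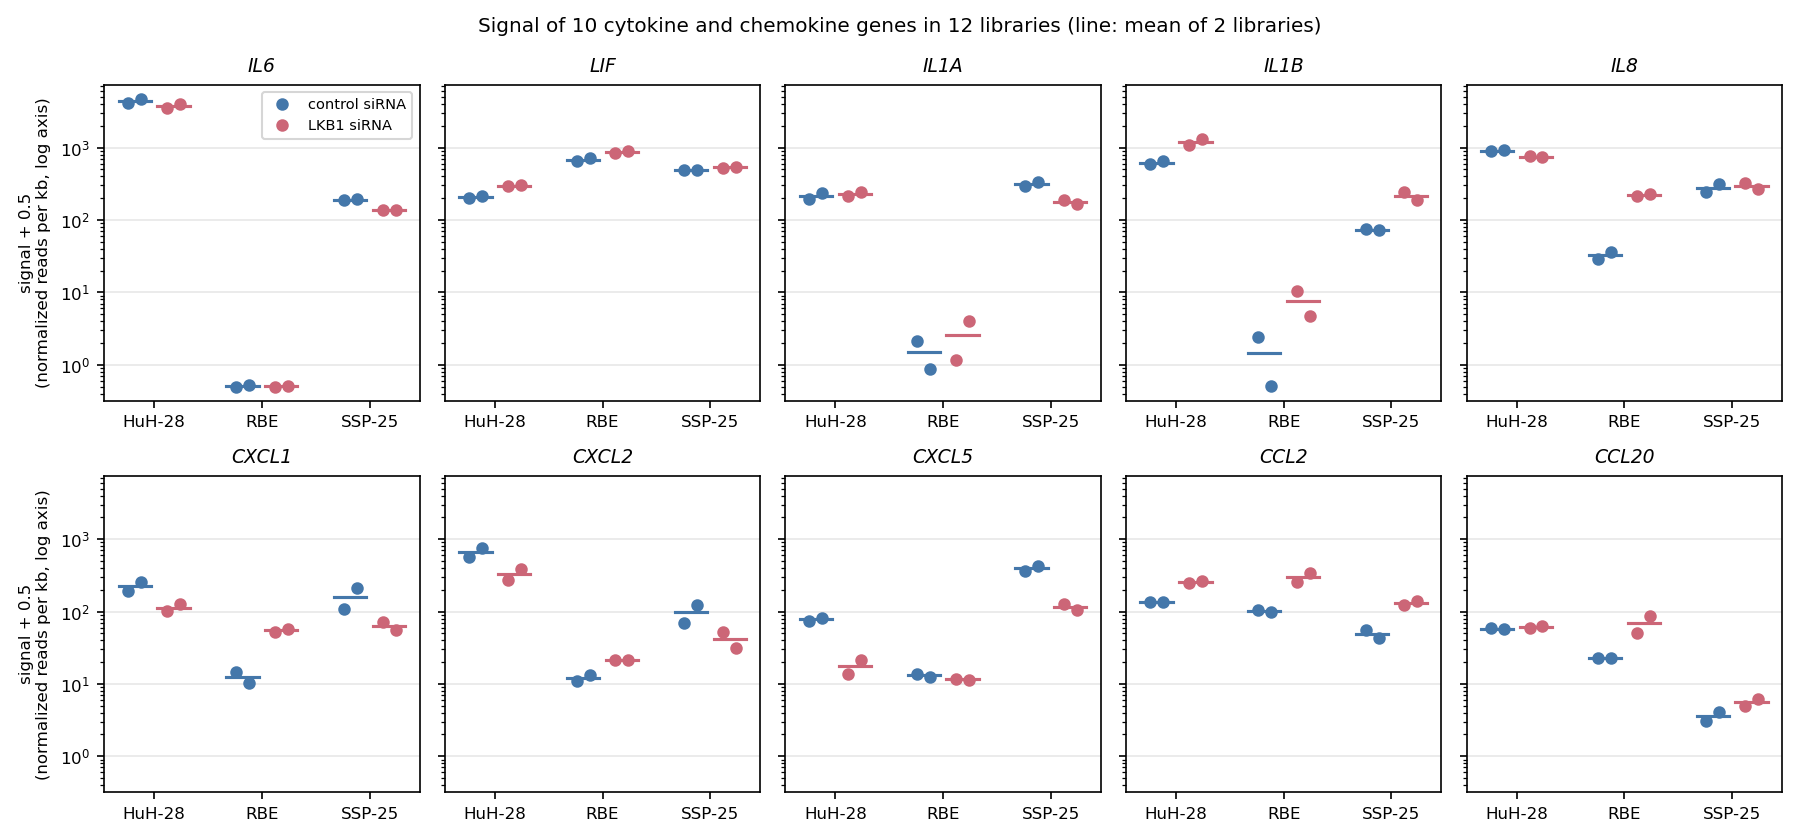
Signal plus 0.5 (normalized reads per kilobase, log axis) of each mRNA in all 12 libraries, by cell line, with control siRNA in blue and LKB1 siRNA in red and a line at the mean of 2 libraries. CCL2 is higher with LKB1 siRNA in all 3 lines, CXCL1 is higher in RBE and lower in HuH-28 and SSP-25, and IL6 lies at the bottom of the axis in RBE.

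**Figure D3:**
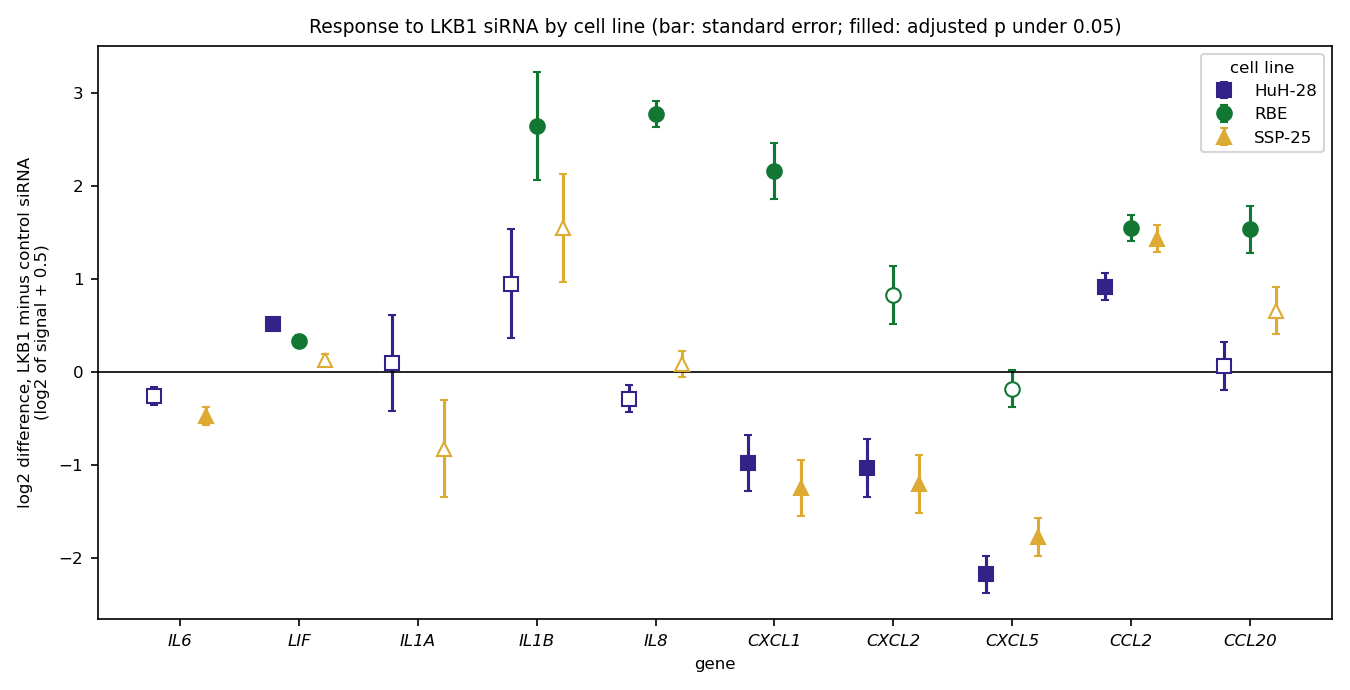
Log2 difference, LKB1 minus control siRNA, of each mRNA in HuH-28 (squares), RBE (circles) and SSP-25 (triangles), with bars for the standard error and filled symbols where the adjusted p was under 0.05. IL6 and IL1A are not drawn for RBE, where both groups were near 0, and the RBE points of IL8, CXCL1 and CXCL2 lie above those of the other lines.

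CCL2, the monocyte chemoattractant, was the member that rose in every line. The gene is at chromosome 17, 34255218 to 34257203, forward strand (GENCODE v29, GRCh38). In HuH-28 its signal was 133 and 134 in the control libraries and 244 and 262 with LKB1 siRNA. RBE had 105 and 96.7, then 258 and 339, and SSP-25 54.9 and 43.0, then 124 and 141. No LKB1 siRNA library overlapped a control library of its line. The log2 differences were 0.92 ± 0.14, 1.55 ± 0.14 and 1.44 ± 0.14 (adjusted p = 0.0011, 2.3e-05 and 3.6e-05), or 1.89-fold, 2.96-fold and 2.71-fold of the mean signal. On average CCL2 was higher by 1.30 ± 0.08 (adjusted p = 7.8e-07, exact permutation within lines p = 0.0093, the smallest the design allows). The difference in response between lines did not pass (adjusted p = 0.075, and 0.035 without the first RBE LKB1 siRNA library).

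CCL20, the ligand of CCR6, rose in RBE. The gene is at chromosome 2, 227805739 to 227817564, forward strand. The RBE libraries gave 22.5 and 22.5 with control siRNA and 50.1 and 87.2 with LKB1 siRNA. This was 3.05-fold of the control mean, with a log2 difference of 1.53 ± 0.25 (adjusted p = 0.00094), and the LKB1 siRNA libraries were well apart from each other. HuH-28 had 59.0 and 56.4, then 58.3 and 62.6, which overlapped, with a difference of 0.07 ± 0.25 (adjusted p = 0.89). SSP-25 had the lowest CCL20, at 2.54 and 3.58, then 4.44 and 5.77, with a difference of 0.66 ± 0.25 (adjusted p = 0.062). The test of a difference between lines gave an adjusted p of 0.033, which rose to between 0.055 and 0.086 on leaving out any one of the HuH-28 libraries, either control library of RBE or its second LKB1 siRNA library, and was 0.072 with no filter and 0.052 with no trend. On average CCL20 was higher by 0.75 ± 0.15 (adjusted p = 0.0016, exact permutation p = 0.019), and without RBE by 0.36 (adjusted p = 0.094).

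The neutrophil-attracting CXC chemokines IL8, CXCL1, CXCL2 and CXCL5 are encoded within one cluster on chromosome 4 (GENCODE v29, GRCh38). IL8 lies on the forward strand from 73740506 to 73743716 and CXCL1 on the forward strand from 73869393 to 73871242. CXCL5 lies on the reverse strand from 73995642 to 73998779 and CXCL2 on the reverse strand from 74097035 to 74099293. Their promoters are shown because CXCL1 of this group passed in opposite directions, higher in RBE and lower in HuH-28 and SSP-25. CXCL2 had the same signs but did not pass in RBE. IL8 passed only as a rise and CXCL5 only as a fall. The sequences are the 150 bases before the start of each gene in RefSeq (GRCh38.p14), 5′ to 3′ along the gene's strand, and capitals mark the word GGNNTTTCC on either strand, a common form of the NF-κB site. They are chr4:73740419-73740568 (+) for IL8, chr4:73869243-73869392 (+) for CXCL1, chr4:74099196-74099345 (-) for CXCL2 and chr4:73998678-73998827 (-) for CXCL5. The RefSeq sequence of IL6, chr7:22727050-22727199 (+), is set beside them as the most abundant member in HuH-28.
IL8: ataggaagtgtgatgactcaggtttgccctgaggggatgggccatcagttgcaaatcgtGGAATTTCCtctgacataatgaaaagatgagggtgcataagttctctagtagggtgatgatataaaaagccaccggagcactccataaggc
CXCL1: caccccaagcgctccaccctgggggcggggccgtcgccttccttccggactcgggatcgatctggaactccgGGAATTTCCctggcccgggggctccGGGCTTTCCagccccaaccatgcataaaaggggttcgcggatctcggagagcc
CXCL2: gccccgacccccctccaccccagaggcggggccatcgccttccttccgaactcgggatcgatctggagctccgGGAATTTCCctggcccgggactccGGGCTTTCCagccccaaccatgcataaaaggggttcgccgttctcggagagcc
CXCL5: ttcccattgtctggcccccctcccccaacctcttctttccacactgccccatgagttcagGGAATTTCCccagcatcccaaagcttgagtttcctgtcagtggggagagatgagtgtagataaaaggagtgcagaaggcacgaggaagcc
IL6: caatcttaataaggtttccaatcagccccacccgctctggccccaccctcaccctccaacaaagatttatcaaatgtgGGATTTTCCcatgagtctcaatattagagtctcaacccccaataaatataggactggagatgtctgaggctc

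CXCL1 and CXCL2 held the word GGNNTTTCC 2 times, as GGAATTTCC and GGGCTTTCC, and IL8 and CXCL5 held it once, as GGAATTTCC. In IL6 it read GGATTTTCC, and in CCL20 it was found on the opposite strand. Counted with the base before the start as -1, the words began at -78 and -53 in CXCL1, -77 and -53 in CXCL2, -91 in IL8, -90 in CXCL5, -72 in IL6 and -79 in CCL20. The windows searched ran from 250 bases before to 50 after the start, and 6.26% of 35116 such RefSeq promoters held the word. Neither IL1A nor IL1B held it in this window. LIF and CCL2 had no entry in the promoter set used, so their promoters were not searched for any of these words. The AP-1 word TGANTCA, on either strand and held by 7.71% of promoters, was found in IL8 and IL1A. The C/EBP word TTGCNNAA, held by 10.5%, was found in IL6, IL1B and CXCL2. No match of these words overlapped another. Over a global alignment of these windows CXCL1 and CXCL2 were 71.9% identical, CXCL1 and CXCL5 55.3%, and CXCL1 and IL8 45.2%. Binding of a factor to these promoters was not measured.

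CXCL1 moved in opposite directions. In RBE its signal was 14.2 and 9.66 with control siRNA and 51.8 and 56.5 with LKB1 siRNA, a 4.53-fold rise (log2 difference 2.16 ± 0.30, adjusted p = 0.00032). In HuH-28 it was 190 and 259, then 100.9 and 125. SSP-25 had 107 and 208, then 71.4 and 54.8. The siRNA groups did not overlap in any line, but the SSP-25 control libraries lay far apart. CXCL1 fell by 0.98 ± 0.30 in HuH-28 (adjusted p = 0.035) and by 1.25 ± 0.30 in SSP-25 (adjusted p = 0.0079) on the log2 scale. The difference between lines passed (adjusted p = 0.00080), and the average over the lines was -0.02 ± 0.17 (adjusted p = 0.93). The HuH-28 call was lost without its second control library (adjusted p = 0.18), either of its LKB1 siRNA libraries (0.15 and 0.055) or either RBE LKB1 siRNA library (0.052 in both), and also with no filter (0.094), no trend (0.071) or the line fitted alone (0.065). The SSP-25 call was lost without the second control or second LKB1 siRNA library of that line (adjusted p = 0.063 and 0.065).

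CXCL2 had the same signs. In HuH-28 it was 569 and 758 with control siRNA and 269 and 384 with LKB1 siRNA, and in SSP-25 69.8 and 124, then 52.2 and 30.6. It fell by 1.03 ± 0.31 and 1.21 ± 0.31 on the log2 scale (adjusted p = 0.032 and 0.011). RBE had low CXCL2, at 10.3 and 12.8, then 21.1 and 20.5, with a log2 difference of 0.83 ± 0.31 that did not pass (adjusted p = 0.058). The response differed between lines (adjusted p = 0.013, and 0.054 without the first RBE control library). The call in HuH-28 was lost without its second control or first LKB1 siRNA library (adjusted p = 0.16 and 0.17), and with no filter (0.090), no trend (0.067) or the line fitted alone (0.075). The call in SSP-25 was lost without its second control or second LKB1 siRNA library (0.098 and 0.099) and with the line fitted alone (0.057). CXCL1 and CXCL2 are close paralogs. Words of 40 bases were taken from the annotated coding transcript of each gene that has the longest 3′ UTR. Of these words 10.6% in CXCL1 and 14.2% in CXCL2 also occur in another gene, mostly in each other. Reads of 40 bases could thus be split between them. In 7 other members, IL6, LIF, IL1A, IL1B, IL8, CCL2 and CCL20, 0 such words were shared, and in CXCL5 2.56%. CXCL3, another close paralog that was looked up after the values of CXCL1 and CXCL2 were seen, had control and LKB1 means of 1.74 and 11.7 in RBE, 121 and 88.5 in HuH-28 and 80.2 and 40.04 in SSP-25. It passed in RBE and SSP-25 (log2 differences of 2.45 ± 0.27 and -0.93 ± 0.27, adjusted p = 7.0e-05 and 0.019) and not in HuH-28 (-0.47 ± 0.27, adjusted p = 0.23).

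IL8, a neutrophil chemoattractant, rose in RBE and did not pass in HuH-28 or SSP-25. In RBE the libraries were at 28.1 and 35.6 with control siRNA and 214 and 225 with LKB1 siRNA. The groups were far apart, at 6.89-fold, with a log2 difference of 2.78 ± 0.14 (adjusted p = 5.5e-07). In HuH-28 IL8 was at 901 and 923, then 765 and 732, a difference of -0.28 ± 0.14 that did not pass (adjusted p = 0.17). In SSP-25 it was at 240 and 316, then 320 and 268, and the groups overlapped (0.09 ± 0.14, adjusted p = 0.67). The response differed between lines (adjusted p = 5.6e-05). Even after this rise RBE stayed below HuH-28 in IL8 signal. The average over the lines of 0.86 ± 0.08 (adjusted p = 1.2e-05, exact permutation p = 0.26) rested on RBE, since without that line it was -0.10 (adjusted p = 0.45).

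CXCL5, which also attracts neutrophils, fell in SSP-25 and HuH-28, the lines with the higher control signal. In SSP-25 it went from 365 and 430 with control siRNA to 126 and 106 with LKB1 siRNA. In HuH-28 it went from 73.5 and 81.1 to 13.2 and 21.2. The groups were well separated in both lines, and control means were 3.43 and 4.50 times the LKB1 siRNA means. CXCL5 fell by 1.77 ± 0.20 on the log2 scale in SSP-25 and by 2.18 ± 0.20 in HuH-28 (adjusted p = 7.7e-05 and 4.7e-05). RBE had 13.4 and 11.99, then 11.3 and 11.0, with a difference of -0.18 ± 0.20 (adjusted p = 0.53). The response differed between lines (adjusted p = 0.0019). On average CXCL5 was lower by 1.37 ± 0.12 (adjusted p = 4.9e-06), with the smallest exact permutation p the design allows (0.0093).

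Of the IL-1 cytokines, IL1B was higher with LKB1 siRNA in each line without overlap of libraries. The gene lies on the reverse strand of chromosome 2 from 112829751 to 112836903, next to IL1A from 112773915 to 112784590 on the same strand. HuH-28 had 596 and 646 with control siRNA and 1092 and 1315 with LKB1 siRNA. SSP-25 had 73.5 and 72.2, then 240 and 191, and RBE had 1.91 and 0.0134, then 9.90 and 4.16. The means with LKB1 siRNA were 1.94 times control in HuH-28 and 2.96 times control in SSP-25, and no fold is given for RBE because its control level was below 1. On average over the lines the log2 difference was 1.71 ± 0.34 (adjusted p = 0.0017, exact permutation p = 0.0093). By line it was 2.65 ± 0.58 in RBE, 1.55 ± 0.58 in SSP-25 and 0.95 ± 0.58 in HuH-28 (adjusted p = 0.0050, 0.057 and 0.26). The common spread of this fit includes the RBE control libraries, one of which was near 0. With each line fitted alone IL1B passed in HuH-28 and SSP-25 (adjusted p = 0.031 and 0.0013) and not in RBE (0.092), and without either RBE control library it passed in SSP-25 (0.0042 and 0.0041). In RBE the difference depended on the pseudocount, at 3.77 with 0.1 and 0.62 with 10.

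IL1A did not pass in any line in the common fit, whose spread includes its low RBE libraries. In SSP-25 it was at 298 and 329 with control siRNA and at 191 and 164 with LKB1 siRNA, groups that did not overlap. The log2 difference was -0.82 ± 0.52 (adjusted p = 0.24), and with SSP-25 fitted alone the adjusted p was 0.0033. HuH-28 had 195 and 232, then 212 and 245, which overlapped (0.10 ± 0.52, adjusted p = 0.93). In RBE all 4 libraries were between 0.366 and 3.55, and no change is read from them. In SSP-25 the more abundant IL-1 mRNA with control siRNA was IL1A, while with LKB1 siRNA the mean of IL1B (215) lay above that of IL1A (178). The LKB1 siRNA libraries overlapped, with IL1B at 240.3 and 190.7 and IL1A at 190.95 and 164.4, so the order there is not resolved.

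IL6, which led the profile in HuH-28, fell in SSP-25. The gene is at chromosome 7, 22725884 to 22732002, forward strand. SSP-25 had 186 and 193 with control siRNA and 138 and 135 with LKB1 siRNA, a fall of 0.48 ± 0.10 on the log2 scale (adjusted p = 0.0033). In HuH-28, with 4199 and 4717, then 3523 and 3955, the groups did not overlap but the difference of -0.25 ± 0.10 did not pass (adjusted p = 0.080, and 0.026 at a pseudocount of 10). RBE was at 0.0170 or less in all 4 libraries. LIF, the other gp130 ligand, lies on the reverse strand of chromosome 22 from 30240447 to 30246851. It rose in HuH-28, from 202 and 217 to 298 and 300, and in RBE, from 646 and 723 to 832 and 890. The log2 differences were 0.51 ± 0.06 and 0.33 ± 0.06 (adjusted p = 0.00032 and 0.0024). In SSP-25 it was 492 and 492, then 530 and 547, with a difference of 0.13 ± 0.06 (adjusted p = 0.14). LIF was thus higher in each LKB1 siRNA library than in the controls of its line, by 0.33 ± 0.04 on average (adjusted p = 4.6e-05, exact permutation p = 0.0093). The difference between lines (adjusted p = 0.030) was lost on leaving out any of the 4 SSP-25 libraries, the first HuH-28 control or the second HuH-28 LKB1 siRNA library (0.053 to 0.093), and under quantile normalization (0.065) or no trend (0.066).

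The genes whose pattern over the 12 libraries was nearest to that of IL6 were POSTN, MAGEC2, ITGA11, ST6GALNAC5 and ADAMTS12. The measure was the root mean square difference of gene-centred log2(signal + 0.5), and these 5 had the smallest values, from 0.55 to 0.86, among 12220 genes whose mean signal reached 20. POSTN encodes periostin of the extracellular matrix. It had control means of 2787 in HuH-28, 170 in SSP-25 and near 0 in RBE. In SSP-25 with LKB1 siRNA the mean of POSTN was 288 and that of IL6 136, so the likeness follows the levels of the lines rather than the response to siRNA.

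The pentamer ATTTA, the core of AU-rich elements that mark short-lived mRNAs, was dense in the 3′ UTRs of most of the 10 mRNAs and near the median in LIF and CCL2. Over the longest annotated 3′ UTR of each gene (GENCODE v29) IL6 had 14.0 copies per 1000 bases, CXCL2 13.9, IL1B 9.84, IL8 7.19 and CXCL1 7.08, against a median of 1.59 over 18186 genes. CCL20 followed with 6.24, CXCL5 with 5.51 and IL1A with 4.34, and LIF and CCL2 had 2.18 and 2.11. The nonamer TTATTTATT occurred in LIF, IL1B, IL8, CXCL1 and CXCL2 and in 8.16% of 19113 genes. The nonamer was absent from IL6, IL1A, CXCL5, CCL2 and CCL20, and its part in the responses was not tested.

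Among receptors of these ligands, the chain shared by IL-6 and LIF rose in all 3 lines. Of 11 receptor genes tested, 3 rose and 3 fell on average, near the 27.3% and 25.2% of all genes that did so. IL6ST, which encodes gp130, had mean signals of 928 with control and 3306 with LKB1 siRNA in HuH-28. In RBE the means were 366 and 1396, and SSP-25 had 327 and 1292. The log2 differences were 1.83 ± 0.07, 1.93 ± 0.07 and 1.98 ± 0.07 (adjusted p = 3.6e-07, 1.1e-07 and 9.0e-08), and the test of a difference between lines did not pass (adjusted p = 0.51). IL1RAP, the accessory chain of the IL-1 receptor, fell by 0.47 in RBE, 0.92 in HuH-28 and 0.97 in SSP-25. IL1R1, the binding chain, fell by 0.23 in RBE and 0.27 in SSP-25 (adjusted p = 0.019 and 0.0081). Of 16 genes of JAK-STAT3 signalling, 8 rose and 4 fell on average, beside the same 27.3% and 25.2%. CISH, a feedback inhibitor of cytokine receptors, rose by 1.31 ± 0.22, 1.67 ± 0.22 and 1.54 ± 0.22, and the adaptor GRB2 was lower by 0.39 ± 0.02 on average (adjusted p = 6.1e-07). SOCS2, another feedback inhibitor, rose in HuH-28 and SSP-25 by 1.05 and 1.71 and was at 0.13 ± 0.11 in RBE (adjusted p = 0.37).

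**Figure D4:**
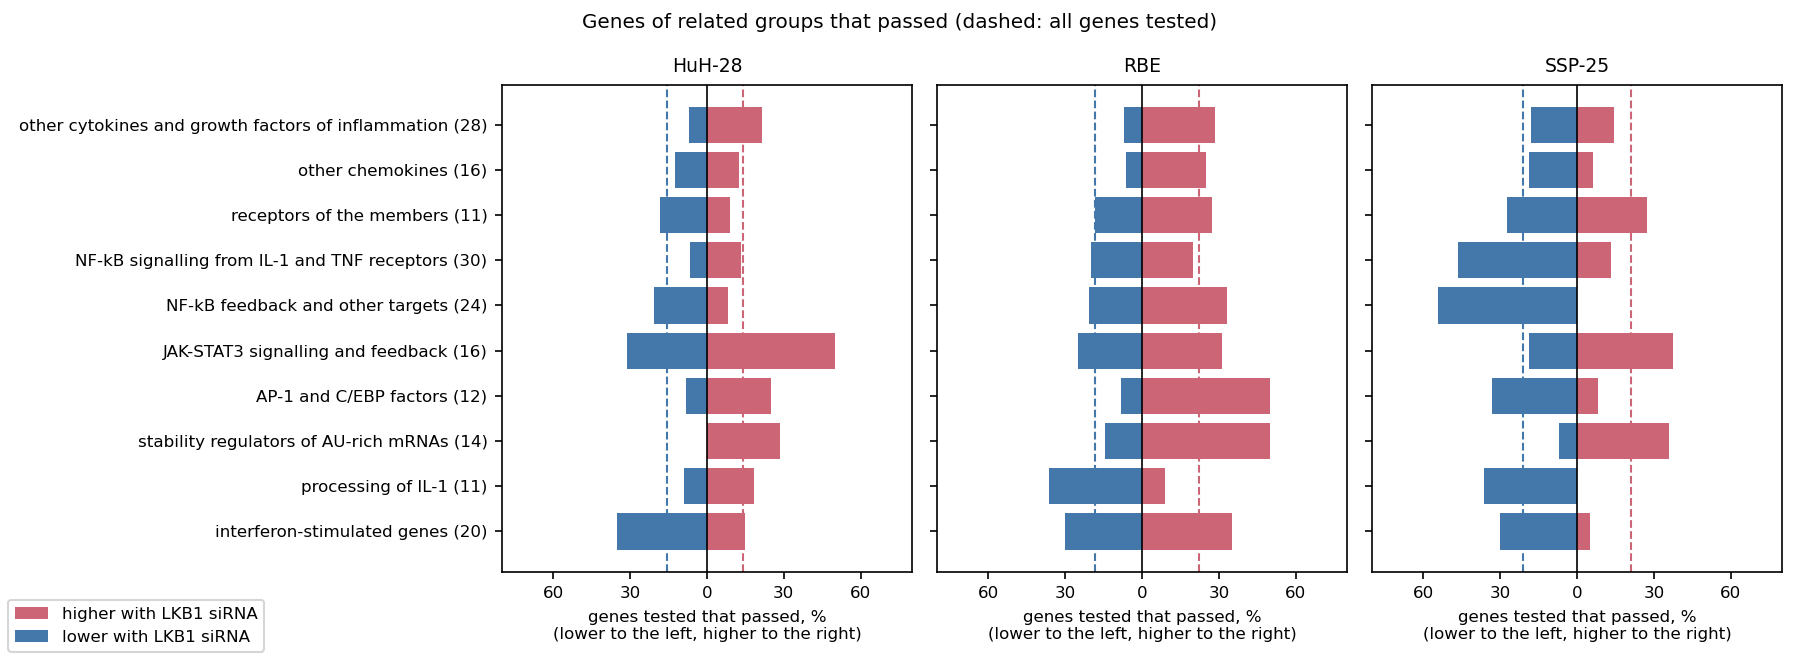
Share of the genes tested in each of 10 related groups (number in parentheses) that passed in HuH-28, RBE and SSP-25, higher with LKB1 siRNA to the right and lower to the left, with dashed lines for all genes tested. In SSP-25, 13 of 24 NF-κB targets were lower and 0 higher, while in RBE 8 were higher and 5 lower.

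Genes of the NF-κB route moved both ways. Of 30 signalling genes 5 rose and 12 fell on average, beside 27.3% and 25.2% of all genes, and 14 fell in SSP-25, beside 21.1%. MYD88, the IL-1 receptor adaptor, rose by 0.58 ± 0.07 in RBE, 0.51 ± 0.07 in SSP-25 and 0.45 ± 0.07 in HuH-28. PELI1, a ubiquitin ligase of that route, rose by 1.27, 1.43 and 1.00 in the same order. TAB3, an adaptor of the kinase TAK1, fell by 0.77, 0.45 and 0.66. Of 24 other NF-κB targets and feedback genes, 2 rose and 5 fell in HuH-28, 8 rose and 5 fell in RBE, and 0 rose and 13 fell in SSP-25. All genes tested gave 14.3% and 15.5%, 22.1% and 18.6%, and 21.1% and 21.1% in that order of lines. The medians of the list were -0.07, 0.11 and -0.48 beside medians of 0.01 to 0.02 over all genes. BIRC3, an apoptosis inhibitor induced by NF-κB, had control and LKB1 means of 383 and 96.7 in SSP-25, 170 and 82.8 in HuH-28 and 215.7 and 170 in RBE, and its response differed between lines (adjusted p = 0.00039). TNFAIP2 fell by 0.93 in RBE, 1.27 in SSP-25 and 0.74 in HuH-28. IRF1 fell in RBE by 0.26 and in SSP-25 by 0.88 and was at -0.04 ± 0.05 in HuH-28 (adjusted p = 0.63).

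In RBE 6 of 12 AP-1 and C/EBP factors rose and 1 fell, beside 22.1% and 18.6% of all genes tested. The AP-1 subunits FOSL2 and JUNB were higher by 1.13 ± 0.10 and 0.98 ± 0.08, and FOSL1 was lower by 0.66 ± 0.05. In SSP-25 1 rose and 4 fell, beside 21.1% each way over all genes, with JUNB lower by 0.24 ± 0.08 (adjusted p = 0.031), and the JUNB response differed between lines (adjusted p = 0.00025). Of 14 regulators of AU-rich mRNAs, 7 rose and 2 fell in RBE, 5 rose and 1 fell in SSP-25, and 4 rose and 0 fell in HuH-28. The shares over all genes were 22.1% and 18.6% in RBE, 21.1% and 21.1% in SSP-25, and 14.3% and 15.5% in HuH-28. DUSP1, a phosphatase that inactivates p38, rose by 1.99 ± 0.07 in RBE, 0.23 ± 0.07 in SSP-25 and 0.77 ± 0.07 in HuH-28, and its response differed between lines (adjusted p = 3.4e-05). HNRNPD, an AU-rich element binding protein, rose by 0.73 in RBE, 0.60 in SSP-25 and 0.82 in HuH-28, and MAPK14, which encodes p38α, by 0.53, 0.31 and 0.38.

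Among 11 genes that process IL-1, 1 rose and 5 fell on average, beside 27.3% and 25.2% of all genes. CASP1, the protease that cleaves pro-IL-1β, went from a mean of 347 to 203 in HuH-28 and from 415 to 157 in SSP-25, lower by 0.76 ± 0.13 and 1.40 ± 0.13 (adjusted p = 0.0020 and 2.5e-05), and was at 3.44 and 2.27 in RBE. The means of IL1B mRNA and CASP1 mRNA thus lay in opposite directions in these lines. IL1B did not pass in HuH-28 or SSP-25 in the common fit (adjusted p = 0.26 and 0.057). It passed there with each line fitted alone (adjusted p = 0.031 and 0.0013). Secreted protein was not measured. GSDMD, the pore protein through which IL-1β leaves cells, fell in RBE and SSP-25 by 0.57 and 0.49. NLRP1, an inflammasome sensor, rose in HuH-28 and RBE by 0.45 and 1.13.

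Of 28 other cytokines tested 9 rose and 4 fell on average, where 27.3% of all genes rose and 25.2% fell. IL11, also a gp130 cytokine, had control and LKB1 means of 19.6 and 141 in SSP-25, 99.3 and 224 in HuH-28 and 3.35 and 5.13 in RBE, and rose in each (log2 differences of 2.85, 1.17 and 0.55). CLCF1, which signals through gp130 as well, rose by 0.79, 0.33 and 0.36 in the same order. IL32 rose in HuH-28 and RBE by 0.63 and 1.18 and fell in SSP-25 by 0.55. Of 16 other chemokines tested 3 rose and 1, CCL5, fell on average, against the same shares of all genes. CXCL14 rose in HuH-28 from a mean of 89.1 to 860 (adjusted p = 0.00022) and had means of 1.72 or less in the other lines. CCL11 was at 13.3 in HuH-28 with LKB1 siRNA and at 0.024 or less in the other groups. CCL5 was at 91.7 and 48.6 in HuH-28 with control and LKB1 siRNA (log2 difference -0.90 ± 0.54, adjusted p = 0.25), with means of 3.004 or less in the other lines. Its LKB1 siRNA means were 0.0059 in RBE and 0.032 in SSP-25. The fall of CCL5 on average thus rests partly on values not read as levels. Of 20 interferon-stimulated genes 5 rose and 9 fell on average, again beside 27.3% and 25.2%. IFIT3 was lower by 0.89 ± 0.06 on average, and it fell by 0.84 in RBE, 1.00 in SSP-25 and 0.81 in HuH-28. IFIH1 fell by 0.81, 1.00 and 0.90 in the same order. IFI44 had control and LKB1 means of 783 and 582 in SSP-25, 82.4 and 35.4 in HuH-28 and 61.4 and 35.4 in RBE.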

How the data were processed

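RNA of 12 libraries (HuH-28, RBE and SSP-25 with control or LKB1 siRNA, 2 each) was analysed from one deposited table. Per the file headers and the study's methods the authors gave normalized reads per kilobase, a signal whose read depth is unknown. The methods name reads of 40 bases, NextGENe, NCBI Build 36.1 and RefSeq mRNA, whereas hg19 (GRCh37), edgeR and TopHat 1.2.0 stand in the submitters' processing notes. The sources used here do not say which of them produced the values. Columns were mapped by sample title. Values under 1e-06 were taken as 0, 28 rows with a date for a symbol could not be named, and 23 repeated rows were left out. The 10 genes and all gene lists were chosen with earlier results of these data known. The deposited signal was fitted as log2(signal + 0.5) with limma 3.58.1 in R 4.3.3, with a mean per group, eBayes with trend (6 residual degrees of freedom) and Benjamini-Hochberg adjustment over 16146 genes. The design had assumed RPKM, and its test was kept for this unit. Named genes are the 10 members, STK11, up to 3 genes with the smallest p of the average contrast among those that passed in each list, and the 5 genes nearest to IL6. Means and SDs are on the signal scale. Exact permutation tests were two-sided. The scripts were tested on simulated data. Coordinates are those of GENCODE v29 and RefSeq on GRCh38, another build than the files', which hold none, and promoters were matched for 8 of the 10 genes. Pairing of equal replicate numbers was checked, and the numbers were not taken to pair libraries. Alternatives were other scalings, pseudocounts, filters and a fold threshold, no trend, each line alone, a replicate block, and leaving out each library or line. Sequences were handled in Python 3.11.15 with Biopython 1.88.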

Additional observations from a re-analysis of the deposited data

Results flagged for a closer look

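For 6 of the 10 mRNAs the change after LKB1 siRNA differed between HuH-28, RBE and SSP-25 by limma's F test over all genes. The adjusted p was 5.6e-05 for IL8, 0.00080 for CXCL1, 0.0019 for CXCL5, 0.013 for CXCL2, 0.030 for LIF and 0.033 for CCL20. IL8, CXCL1 and CCL20 rose in RBE, CXCL1 and CXCL2 fell in the other lines, CXCL5 fell in HuH-28 and SSP-25, and LIF rose in HuH-28 and RBE. RBE was the line with the lowest control signal of IL8, CXCL1, CXCL2 and CXCL5, and the part of that lower level in the difference was not tested. The calls of LIF and CCL20 were lost on leaving out any of several single libraries, and that of CXCL2 without the first RBE control library (adjusted p = 0.054).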

How the results depend on the processing

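Of 808 values of single genes under an alternative, 738 kept direction and side of the threshold, 38 passed in addition, 20 no longer passed and 12 changed sign, and of the tests between lines 182 of 210 kept their side. The members that rose in HuH-28 were 0 with an absolute log2 difference above 1 and those that fell 1 with each line fitted alone, with 1 to 3 falling on leaving out a library. Those that rose in SSP-25 were 2 with a pseudocount of 1 or 10 or a mean signal of at least 5, 3 with each line alone, 4 with the replicate block, and 1 to 2 without single libraries, and those that fell 2 to 4. On average 2 rose and 1 fell above an absolute difference of 1, 3 rose and 5 fell leaving out RBE, and 1 fell leaving out HuH-28 or SSP-25. IL1A in HuH-28 ranged from -0.025 to 0.22 and IL8 in SSP-25 from -0.11 to 0.28 without single libraries. Averages that changed sign were IL8 at -0.10 without RBE and CXCL1 at 0.46 without HuH-28, 0.59 without SSP-25, and -0.18 to 0.14 without single libraries. An average without a line is the mean of the remaining contrasts, so its size moves where the omitted line responded differently. The cause of the other shifts was not tested. Deviations of libraries with the same number correlated at 0.43 in HuH-28, 0.033 in SSP-25 and 0.0023 in RBE. The main fit did not pair libraries, although same-numbered HuH-28 libraries deviated together. Rows at 0 also went with the number there, at 1063 in both first libraries and 2985 and 3020 in the second. In RBE they were 3410 and 3295 in the first libraries and 1063 in both second ones. With the replicate block IL1B passed in HuH-28 (adjusted p = 0.020). The unknown depth and 2 libraries a group limit what can be said of values under about 1.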
